A study of Mus musculus with 3 samples.

Results

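The guanylate-binding proteins (GBPs) and the immunity-related GTPases (IRGs) are 2 families of interferon-inducible GTPases, and 10 of their genes were followed here out of 18287 listed genes. The 10 genes were taken by symbol from the deposited tables: Gbp2, Gbp3, Gbp4, Gbp6, Gbp7 and Gbp9 for the GBPs, and Irgm1, Irgm2, Igtp and Iigp1 for the IRGs. They were chosen by their measured read ratios, having been seen to be low in the treated cells of these libraries, so the differences below are descriptions with no test. All 10 symbols were found in both tables set against control.

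The cells were mouse aortic endothelial cells, purchased cells of the type that lines the aorta, and polyadenylated RNA was sequenced. Control cells had no treatment named in their label. A second culture was exposed to glucose oxidase, which oxidises glucose and so generates hydrogen peroxide (GOx below; 5 mU/mL, 30 min). The third had this exposure and also ethyl-2-hydroxybenzylamine (Et2HOBA, 0.2 mM, 24 h), a small amine that reacts with isolevuglandins, the lipid dicarbonyls named in the series title, before they form adducts with proteins. The order of the exposures is not stated. No culture with Et2HOBA alone was analysed here, so an action of Et2HOBA by itself and one on the oxidant response cannot be told apart. Values below stand in the order control, GOx, GOx plus Et2HOBA. Each group was 1 library of 35005089 to 40212212 reads over the listed genes, with no replicates, and strain, sex, age and number of donor animals are not given in the sources used here.

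Endothelial markers checked the label: all 9 were listed, with 310860, 189191 and 192276 summed reads, and Kdr, Tek and Vwf were lower by more than 1 log2 unit in both treated libraries. Erg had log2 ratios to control of -0.51 after GOx and -1.14 with Et2HOBA, Tie1 of -0.66 and -0.88, and Flt1 of -0.54 and -0.90. The remaining endothelial markers differed less: Pecam1 had ratios of -0.38 and -0.35, Cdh5 of -0.20 and 0.19, and Emcn of 0.33 and 0.55. Of 7 leukocyte markers only Cd68 and Lyz2 were listed, and Ptprc, which marks all leukocytes, was not. Cd68 had 8215, 17067 and 27799 reads, and Lyz2 went the other way with 186, 76 and 86. Smooth muscle markers (4 of 5 listed, without Cnn1) summed to 44, 71 and 99 reads, and fibroblast markers (2 of 5 listed, without Col1a2, Dcn and Lum) to 135, 1355 and 2844, nearly all of it Pdgfra. Whether any of these shifts has a part in the values below was not tested, and in bulk RNA fewer cells of a type and less RNA per cell cannot be told apart. The GOx library also stood apart in processed pseudogenes, of which 841 of 2110 were lower than control by 1 log2 unit or more, against 52 in the other treated library. The 10 GTPase genes are protein-coding, and whether what sets that library apart bears on them was not tested. It enters the comparison of the other treated library with control through the size factors alone. Under total-count scaling it enters only through a constant common to all libraries. The median log2 ratio of the 10 genes there was then -2.64, beside -0.13 over all listed genes.

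As background, interferon gamma binds its receptor, the kinases JAK1 and JAK2 become active, and transcription factors of the STAT and IRF families bind the promoters of target genes. IRF1 and complexes that hold IRF9 bind interferon response elements there. GBPs assemble on the membranes of pathogens and of the vacuoles that hold them, where they promote lysis and the sensing of bacterial lipopolysaccharide by caspase-11. The IRGs fall into effectors such as Iigp1, which load onto vacuoles, and the regulatory IRGM proteins Irgm1, Irgm2 and Igtp, which keep the effectors off the cell's own membranes. Endothelial cells are known to express both families strongly under interferon gamma.

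RefSeq promoter entries on GRCm38.p6 were matched by symbol for 6 of the 10 genes: Gbp2, Gbp3, Gbp7, Irgm1, Irgm2 and Igtp. No entry was used for Gbp4, Gbp6, Gbp9 and Iigp1, so their promoters were not searched. For Iigp1 this does not show that an entry is lacking. The 250 bases before each transcript start were searched on both strands for the core of the interferon response element (GAAA, any 2 bases, GAAA) and for a STAT family site (TTCNNNGAA, which reads the same on both strands). The core was found before at least 1 start of each of the 6 genes, against 2.98% of 32851 mouse promoters of the same length. The STAT site was found before 3 of the 6, Gbp7, Irgm2 and Igtp, against 7.02% of all promoters, and those 3 held both motifs, against 0.332% of all. Among other GBP and IRG genes with an entry, Gbp5, Tgtp1, Tgtp2, Gm12250 and Gm12185 also held both motifs, and Gbp2b the core alone. Irgq, 9930111J21Rik1, 9930111J21Rik2 and Gm5431 held neither. In Gbp3 and Irgm1 a pair of overlapping core matches lay 45 to 30 and 30 to 15 bases before the start, and the second RefSeq start of Gbp3 had none. The Irgm1, Gbp2 and Irgm2 matches lie inside the deposited gene models, whose starts are 263, 61 and 15359 bases upstream of the RefSeq starts. A match describes letters in a window and does not show that a factor bound there.

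The 120 bases before the start are printed, 5′ to 3′ on the gene's strand, with motif matches in capitals. Those of Gbp2 and Irgm1 are left out because 61 and 120 of their bases are annotated exon, against at most 18 in those printed. The 4 printed windows hold all matches of these genes. They lie at chr3:142559924-142560043 (Gbp3, plus strand), chr3:142530216-142530335 (Gbp7, plus), chr11:58214857-58214976 (Irgm2, plus) and chr11:58199436-58199555 (Igtp, plus).
Gbp3: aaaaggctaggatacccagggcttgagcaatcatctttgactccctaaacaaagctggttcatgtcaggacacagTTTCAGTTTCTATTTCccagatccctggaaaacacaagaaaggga
Gbp7: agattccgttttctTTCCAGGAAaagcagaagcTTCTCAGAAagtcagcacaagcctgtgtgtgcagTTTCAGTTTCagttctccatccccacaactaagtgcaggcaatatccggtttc
Irgm2: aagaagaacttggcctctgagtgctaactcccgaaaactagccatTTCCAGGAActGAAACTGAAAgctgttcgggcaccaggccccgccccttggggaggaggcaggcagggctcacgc
Igtp: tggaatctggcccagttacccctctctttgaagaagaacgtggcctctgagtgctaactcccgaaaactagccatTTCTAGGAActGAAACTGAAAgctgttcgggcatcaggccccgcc
The Irgm2 and Igtp sequences were nearly the same: shifted by 30 bases, 87 of 90 compared bases were identical, and in both the STAT site stood just before the response element core. Before Gbp2 the single core match, TTTCACTTTC, lay 59 to 50 bases before the start.

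**Figure D1:**
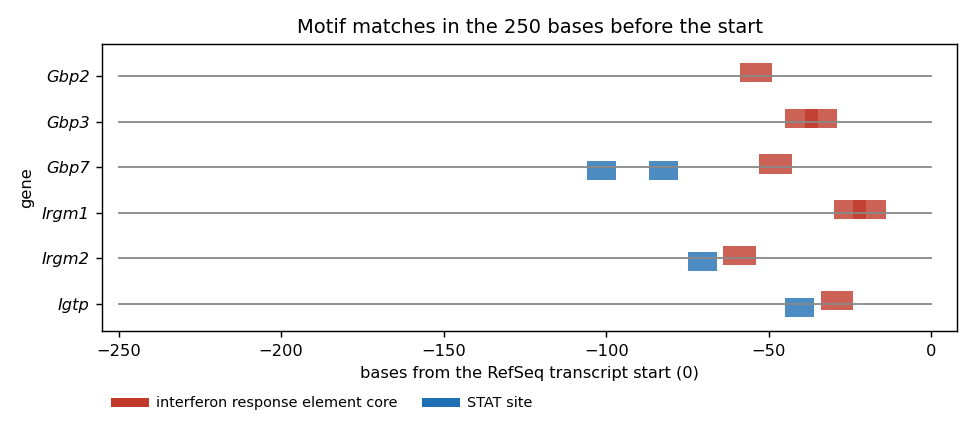
Position of motif matches in the 250 bases before the RefSeq start (x axis, bases, 0 is the start) of 6 GTPase genes (rows; for Gbp3 the first of its starts). Red boxes are interferon response element cores and blue boxes STAT sites; all matches lie within 106 bases of the start, and Gbp7, Irgm2 and Igtp have both kinds.

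Every one of the 10 genes had fewer reads after GOx than in control, and fewer again after GOx plus Et2HOBA. Summed over the 10, the reads were 47199 in control, 17980 after GOx and 8348 with Et2HOBA as well, or 1312, 514 and 208 CPM. Levels below are reads divided by a size factor for each library (normalized counts). Log2 ratios are of normalized counts plus 10. Of 18287 listed genes, 9349 had a ratio below 0 for GOx against control and 9135 between the treated libraries. How many of all genes were lower in both steps was not counted, and the 10 were chosen for low values. Each 95% interval is an exact Clopper-Pearson interval for the reads of a pair of libraries. It holds only counting error, treats reads as independent molecules, and is a statement on those libraries rather than on the treatments.

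Gbp9 (ENSMUSG00000029298.15, chromosome 5, 105077630 to 105139539 on GRCm38) was the most abundant of the 10 by far. It had 29025 reads in control, 10848 after GOx and 4950 with Et2HOBA, which is 61.5% of all reads of the 10 genes in control and 59.3% in the last library. Its level was 2.50-fold lower than control after GOx (95% interval 2.45 to 2.56) and 5.90-fold lower with Et2HOBA (5.73 to 6.08). Gbp9 is one of the GBPs that gather at parasite vacuoles in cells treated with interferon gamma. Per kilobase of merged exon it stood above 98.0% of listed protein-coding genes in control, above 94.0% after GOx and above 83.4% with Et2HOBA.

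Its neighbours on chromosome 5 moved the same way. Gbp4 (ENSMUSG00000079363.7, 105115767 to 105139586) had 5098, 1727 and 788 reads. Its level with Et2HOBA was 6.51-fold lower than control (6.04 to 7.03). Gbp6 (ENSMUSG00000104713.4, 105270702 to 105293698) had 1323, 335 and 215 reads. Gbp6 was the gene with the largest difference after GOx alone, 3.69-fold lower than control (3.27 to 4.18), and the smallest between the treated libraries, 1.68-fold (1.41 to 1.999). Of its 50-base stretches 59.7% are shared with other annotated genes, mostly Gm43302, so its count depends on how shared reads were assigned.

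On chromosome 3, Gbp2 and Gbp7 differed less from control after GOx than the other 8 genes did, though their intervals overlap those of Irgm1 and Iigp1, and that of Gbp2 also overlaps that of Irgm2. Gbp2 (ENSMUSG00000028270.12, 142620602 to 142638008), a prenylated GBP that is recruited to vacuole membranes, had 935 reads in control, 456 after GOx and 200 with Et2HOBA. Gbp7 (ENSMUSG00000040253.15, 142530342 to 142550149) had 1249, 621 and 276 reads. In these libraries Gbp2 and Gbp7 kept 52.1% (46.5 to 58.4) and 53.2% (48.2 to 58.6) of the control level after GOx, the highest shares among the 10, and 21.3% and 22.0% with Et2HOBA. Gbp3 (ENSMUSG00000028268.14, 142560026 to 142573209), which lies between them, had 1378, 500 and 192 reads and kept 38.8% (34.9 to 43.0) and 13.8% (11.8 to 16.1). The Gbp3 interval after GOx does not overlap those of Gbp2 and Gbp7, so the difference within this cluster was larger than counting error.

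Among the regulatory IRGs, Irgm1 (ENSMUSG00000046879.7, chromosome 11, 48861968 to 48871683) was the most abundant, with 4900, 2178 and 1172 reads. Irgm1 guards the Golgi and other host membranes and supports mycobacterial control in mice. It kept the largest share of control with Et2HOBA, 23.8% (22.3 to 25.3), an interval that overlaps those of Gbp2 and Gbp7. Of the 10 it alone had 0% of its 50-base stretches found in other annotated genes. Irgm2 (ENSMUSG00000069874.7, chromosome 11, 58199618 to 58222782) had 1469, 597 and 275 reads, and Igtp (ENSMUSG00000078853.8, chromosome 11, 58199556 to 58207591), also called Irgm3, had 1150, 440 and 208. These genes, whose printed promoters are nearly the same, had levels of 43.4% (39.4 to 47.8) and 40.9% (36.6 to 45.7) of control after GOx, and were 5.38-fold (4.72 to 6.14) and 5.56-fold (4.80 to 6.48) lower with Et2HOBA; the intervals overlap in both libraries. They overlap on the same strand, with 162 exon bases in common, and 12.3% of the stretches of Igtp occur in Irgm2, so these counts are not fully separate. The RefSeq start of Irgm2 lies 15359 bases inside its annotated gene, beyond the end of Igtp.

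Iigp1 (ENSMUSG00000054072.12, chromosome 18, 60376027 to 60392634), the effector also called Irga6, was the least abundant and, by normalized counts, had the largest fold with Et2HOBA. That rank depends on the setting: with a pseudocount of 50 its log2 ratio to control was -2.55, beside -2.63 for Gbp4 and -2.56 for Gbp3. It had 672 reads in control, 278 after GOx and 72 with Et2HOBA. Its level was 2.26-fold lower than control after GOx (1.96 to 2.61), between those of Irgm2 and Irgm1 in size, and 9.39-fold lower with Et2HOBA (7.36 to 12.2). Between the treated libraries it was 4.15-fold lower with Et2HOBA (3.20 to 5.46), an interval above those of 8 of the other 9 genes and overlapping only the upper end of that of Gbp3 (2.37 to 3.33). On the scale of the deposited values its log2 ratios were -2.48 to control, beside -2.60 for Gbp4, and -0.48 between the treated libraries.

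**Figure D2:**
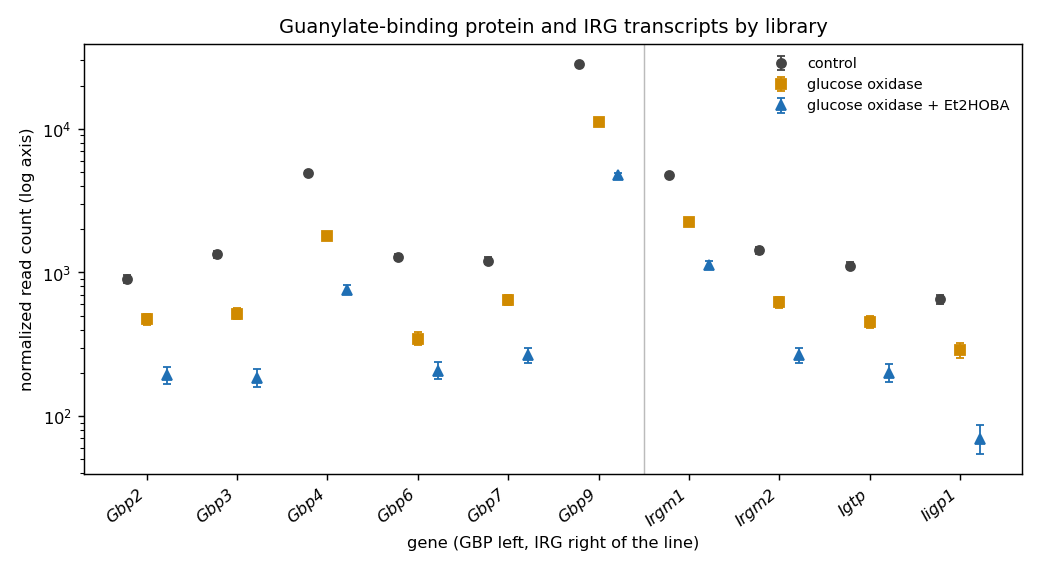
Normalized read count (y axis, log scale) of the 10 genes (x axis) in the control, GOx and GOx plus Et2HOBA libraries. Points are single libraries and bars are exact 95% Poisson intervals of the read count; in every gene the order is control, then GOx, then GOx plus Et2HOBA, and the intervals do not overlap.

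At a limit of 1 log2 unit, a 2-fold difference, 8 of the 10 lay below control in the GOx library, against 8.6% of all listed genes and 4.76% of the protein-coding ones. Gbp2 and Gbp7, at -0.93 and -0.90, fell just short of the limit. The median over the 10 was -1.23 (range -1.86 to -0.90), beside -0.01 over all listed genes. With Et2HOBA as well, 10 of the 10 were lower than control by the same limit, against 8.04% of listed genes and 9.3% of the protein-coding ones, with a median of -2.49 (range -3.06 to -2.06) beside 0.00 over all genes. None was higher past the limit, against 4.07% of listed genes after GOx and 6.66% with Et2HOBA. Among 13285 protein-coding genes 602 and 974 were. At a limit of 0.5 log2 units all 10 were lower after GOx, where 20.3% of listed genes were, and all 10 with Et2HOBA (20.9%). At 2 log2 units none was lower after GOx (2.11%) and all 10 with Et2HOBA (2.17%). Since the genes were chosen for these differences, the counts are given beside the background and nothing is read from them.

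Both comparisons use the same control library. The comparison between the treated libraries does not, though it shares each of them with one of the others. Here 8 of 10 were lower with Et2HOBA, against 2.15% of listed genes and 2.35% of the protein-coding ones. None was higher, against 6.39% of listed genes but only 129 of 13285 protein-coding ones. The median was -1.23 (range -1.91 to -0.72) beside 0.00. At 0.5 log2 units 10 were lower (12%) and at 2 none was (0.0383%). Irgm1, at -0.99, lay at the limit, and Gbp6, at -0.72, above it. Of 10597 protein-coding genes with a mean normalized count of 100 or more, 10 had a lower ratio than Iigp1 in this comparison and 53 a lower one than Gbp3. The difference between control and GOx made up 37.6% (Iigp1) to 72.1% (Gbp6) of the log2 difference between control and the library given both agents, so for most of the genes the 2 steps were of like size. In the authors' deposited table the log2 differences after GOx ran from -1.48 (Gbp6) to -0.73 (Gbp2). In the authors' deposited table for GOx plus Et2HOBA they ran from -2.60 (Gbp4) to -1.93 (Gbp2). Recomputed on the authors' scale for the treated libraries, only Gbp9 passed 1 log2 unit, at -1.06. Each deposited table is on a scale of its own, so its values cannot be added to or subtracted from those of another.

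**Figure D3:**
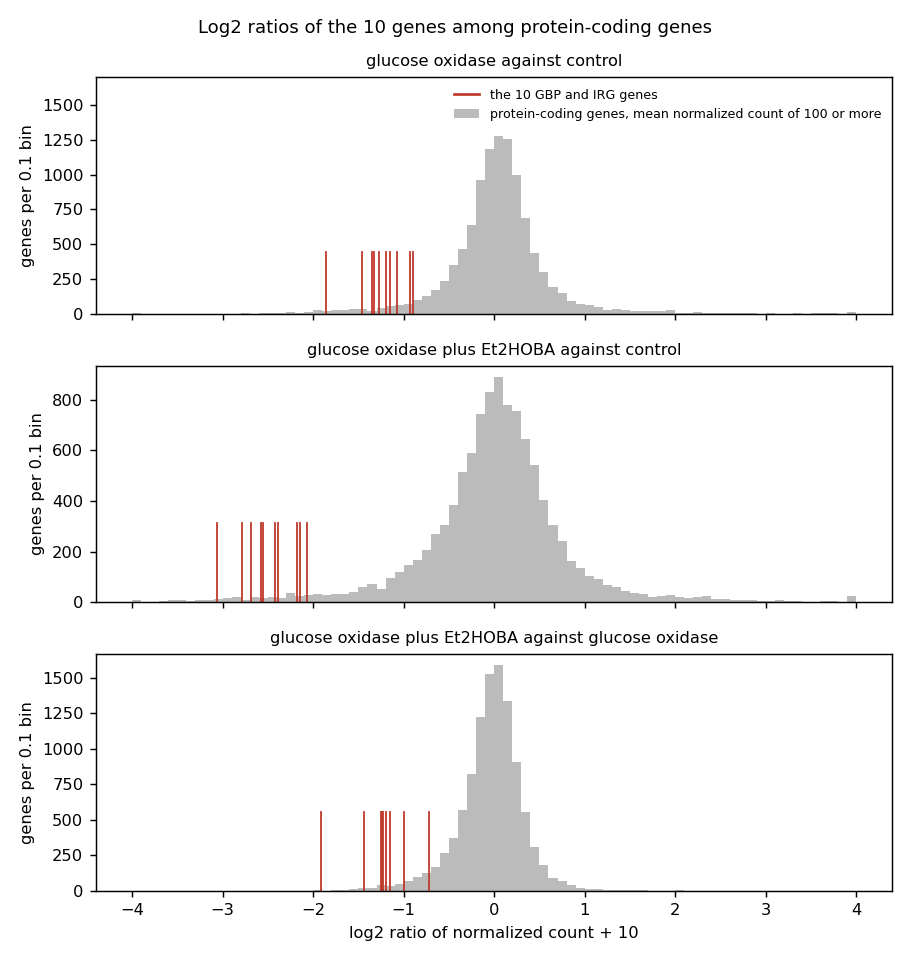
Log2 ratios (x axis) of the 10 genes (red lines, height arbitrary) over the histogram of protein-coding genes with a mean normalized count of 100 or more (grey, genes per bin of 0.1; values beyond 4 in either direction are placed in the end bins), 1 panel for each comparison. The 10 genes lie between -1.86 and -0.90, between -3.06 and -2.06, and between -1.91 and -0.72, in that order.

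The order of the genes by level per kilobase of merged exon was nearly the same in the 3 libraries. In control, Gbp9 had 5437 normalized counts per kilobase, followed by Irgm1 with 817, Gbp4 with 659, Igtp with 551, Gbp3 with 409, Irgm2 with 386, Gbp2 with 360.1, Gbp7 with 216, Gbp6 with 215 and Iigp1 with 112. Of these neighbours, Gbp3 and Irgm2, Irgm2 and Gbp2, and Gbp7 and Gbp6 did not differ beyond counting error. With Et2HOBA the levels per kilobase ran from 921 for Gbp9 and 194 for Irgm1 down to 34.8 for Gbp6 and 11.9 for Iigp1. Gbp3 moved from rank 5 in control to rank 7 in both treated libraries and Gbp2 from 7 to 5. Gbp9 and Irgm1 drew closer: the ratio of their levels per kilobase was 6.65 (6.45 to 6.86) in control, 5.59 (5.34 to 5.86) after GOx and 4.74 (4.45 to 5.06) with Et2HOBA. These levels use all annotated exons, so a gene with long unused exons is placed too low.

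The other genes of both families showed the same direction in most cases, mostly at lower counts. Irgq and 9930111J21Rik2, with more control reads than Gbp2 and Iigp1, did not pass 1 log2 unit in any comparison. Of 17 further GBP and IRG genes sought, 14 were listed. After GOx 6 were lower by 1 log2 unit or more, against 8.6% of all listed genes. When Et2HOBA was given too 9 were (8.04%), and 5 in the second treated library against the first (2.15%). None was higher by that much. Among the GBPs, Gbp2b had 529, 295 and 98 reads, Gbp5 had 135, 81 and 32, and Gbp10 had 220, 97 and 32. Gbp11, annotated as a polymorphic pseudogene, had 128, 19 and 9 reads. Gbp8, with 111, 102 and 51 reads, was the GBP with no detectable difference after GOx at this depth, at 98.2% of control (74.3 to 129.7). Gbp10 shares 82.5% of its 50-base stretches with other genes.

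Among the IRGs, the closely related Tgtp1 and Tgtp2 had 128, 33 and 12 and 52, 14 and 2 reads, and 91.4% and 90.6% of their stretches are shared, mostly with each other. Gm12250, annotated as a processed pseudogene and known as the effector Irgb10, had 95, 28 and 18 reads, and Gm4951 had 69, 23 and 8. Ifi47, or Irgd, which was added after its values were seen, had 294, 172 and 103. The tandem IRG genes 9930111J21Rik1 (95, 79 and 92 reads) and 9930111J21Rik2 (1126, 695 and 899) and the low genes Gm5431 (19, 14 and 4) and Gm12185 (33, 21 and 40) had smaller differences or too few reads to place them. Irgq, a divergent member that is not known as interferon-inducible, had 2299, 2253 and 2176 reads and log2 ratios of 0.07 and -0.09 to control. Irgc1, F830016B08Rik and Gm4841 were not listed.

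**Figure D4:**
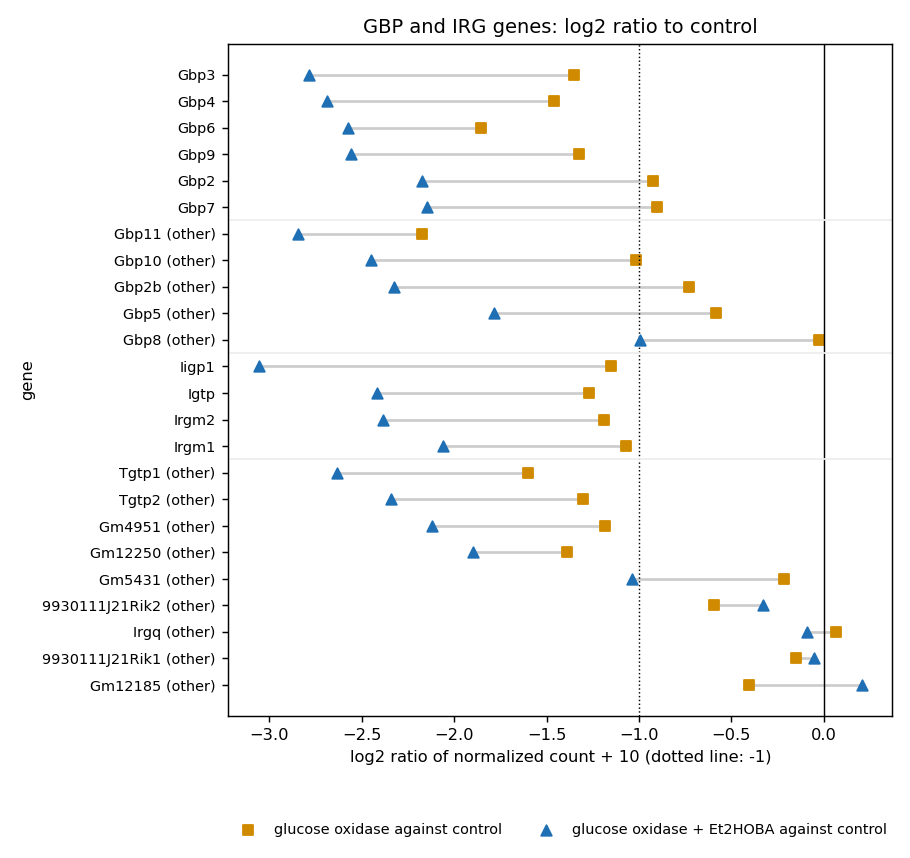
Log2 ratio to control (x axis) after GOx (squares) and GOx plus Et2HOBA (triangles) for the listed GBP and IRG genes (rows; "other" marks family genes beside the 10). In the 10 genes the triangle lies left of the square and left of -1; Irgq lies at 0.07 and -0.09.

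The GBP genes lie in 2 clusters, and the 4 IRGs of the 10 lie at 3 places. The chromosome 3 cluster spans 142493978 to 142638008 and holds Gbp2, Gbp3, Gbp7, Gbp2b and Gbp5, with a median log2 ratio after GOx of -0.90 over these 5. The chromosome 5 cluster spans 105014150 to 105346472 and holds Gbp4, Gbp6, Gbp9, Gbp8, Gbp10 and Gbp11, with a median of -1.39 over these 6. With Et2HOBA the medians were -2.18 and -2.57. The 8 family genes around Irgm1, Ifi47 included, had smaller medians of -0.62 and -1.24, the 3 around Irgm2 and Igtp of -1.27 and -2.38, and the pair with Iigp1 of -1.17 and -2.59. Genes of other families within 250 kb, protein-coding and with a mean normalized count of 100 or more, did not share these values: of 3 beside each GBP cluster none passed 1 log2 unit in any comparison, with medians of 0.07 and 0.31 on chromosome 3 and -0.13 and -0.09 on chromosome 5, after GOx and with Et2HOBA in turn. None of the 7 other genes near Irgm1 and none of the 7 near Irgm2 and Igtp passed the limit, and near Iigp1 Smim3, with 232, 597 and 652 reads, was the only one of 4 to pass it, upward. Gbp9 has 60 exon bases in common with Gbp4 and with Gbp8, and 8.31% and 12.8% of the stretches of Gbp9 and Gbp4 are shared with other genes.

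Upstream, no listed receptor chain or kinase passed 1 log2 unit. Of the IRF factors, Irf1, Irf7 and Irf9 were lower past this limit with Et2HOBA, while Irf2, Irf3 and Irf8 stayed within it. For the interferon gamma receptor, Ifngr1 had 804, 682 and 791 reads, and Ifngr2 had 4382, 3105 and 3613. The kinase Jak1 had 6653, 6295 and 7202 reads and Jak2 had 1778, 2573 and 3373, a log2 ratio of 0.63 after GOx and 0.91 with Et2HOBA. Of the 4 listed genes of this group none passed 1 log2 unit in any comparison, and Ifng, the ligand, was not listed. The type I receptor chain Ifnar1 had 10093, 6343 and 6170 reads, with log2 ratios of -0.57 and -0.72 to control, Ifnar2 had 2040, 1886 and 2268, and Tyk2, its kinase, had 2433, 2553 and 2301. Ifnb1, a type I interferon, had 5 reads in control and 0 in both treated libraries, where a count of 0 allows up to 3 reads (1-sided 95% limit).

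Irf1, which binds the response element, had 1145, 845 and 452 reads, or 78.9% (72.1 to 86.3) and 39.2% (35.1 to 43.8) of control. Irf9, the DNA-binding part of the type I interferon complex, had 1505, 920 and 717 reads, and Irf7, itself an interferon-induced factor, had 1250, 624 and 360. With Et2HOBA the log2 ratios to control were -1.33 for Irf1, -1.07 for Irf9 and -1.78 for Irf7. Irf2 (980, 1036 and 1367 reads) and Irf8 (97, 103 and 189) were higher than control there, at 0.47 and 0.88. Irf3 (1795, 1573 and 1516) was at -0.25. After GOx the share of control that Irf1 kept was above that of each of the 10 GTPase genes, with no overlap of its interval with theirs.

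Among 6 negative regulators, Usp18, an interferon-induced protease that damps the type I receptor, had 1276, 514 and 274 reads, with log2 ratios of -1.20 and -2.19 to control. Socs3, a feedback inhibitor best known downstream of IL-6 type cytokines, had 194, 437 and 450 reads, with ratios of 1.22 and 1.16. Socs1, the inhibitor of JAK kinases that interferon gamma induces, had 324, 232 and 197 reads, and Ptpn11 had 8949, 8837 and 9697. Other inducible GTPases were lower too: Mx1 had 175, 62 and 54 reads and Mx2 had 630, 384 and 193, both annotated as polymorphic pseudogenes. Gm4070, a very large inducible GTPase gene of which 98.9% of stretches are shared with others, had 658, 440 and 561 reads; Gvin1 was not listed.

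The genes with the most similar values were sought among 10587 other protein-coding genes with a mean normalized count of 100 or more, by the distance between their pair of log2 ratios to control and the median pair of the 10 genes. The nearest 5 were Ms4a6b (4083, 1604 and 713 reads), Tedc1 (486, 191 and 83), Fam107a (1474, 617 and 258), Cdc45 (899, 337 and 161) and Gem (5115, 1947 and 851), at distances of 0.03 to 0.11 log2 units. Within 0.63, the distance of the most remote of the 10, lay 187 other genes. With 3 libraries such likeness is shared by many genes.

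**Figure D5:**
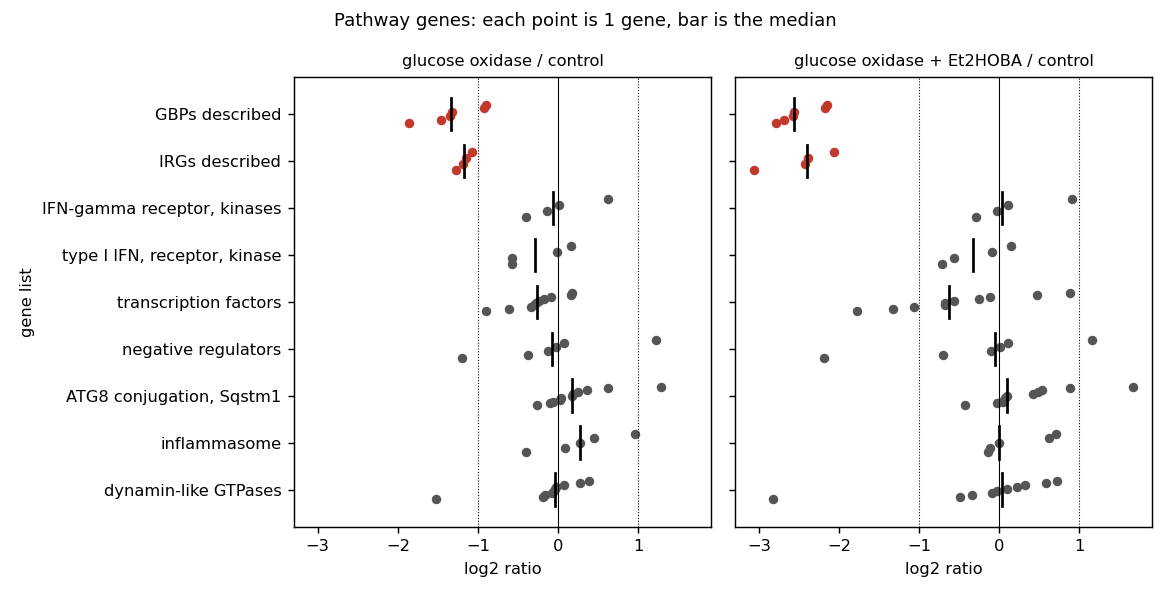
Log2 ratio to control (x axis, the same in both panels) of each gene (points) in the lists named on the y axis, after GOx (left) and GOx plus Et2HOBA (right). Short vertical bars are medians and dotted lines mark 1 log2 unit in either direction (1 transcription factor is not drawn); the GBP and IRG medians are -1.34 and -1.17 on the left and -2.57 and -2.40 on the right.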

How the data were processed

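RNA was sequenced from 3 libraries, 1 per group. STAR, featureCounts and mm10 are named in the submitters' processing notes; settings are not given in the sources used here. Per the file headers, the authors deposited raw read counts for control and GOx plus Et2HOBA, with log2 normalized values and their difference. For GOx against control they deposited log2 differences alone, and for treated against treated those of 7 genes, none of the 10.

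GOx counts were recovered by inverting the authors' transformation, which 2 deposited columns showed to be an arcsinh of root scaled counts. All 18287 came out whole to within 0.01 reads (12 placed by this because a symbol recurred); after adding 1 control read 3.30% did. Counts were divided by size factors (median of ratios: 1.03, 0.965, 1.04). No model was fitted, since 1 library per group gives no spread. Positions, exons and shared stretches come from GENCODE on GRCm38, from the longest transcript for stretches.

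Genes, lists, limit and pseudocount were chosen with earlier results of these data known. Named genes are the 10, listed family genes, fixed pathway genes and the 5 nearest in profile. Up to 4 genes per list, those with the largest ratios with Et2HOBA, are named as well. Ifi47, Irf2, Irf3, Irf8, the endothelial markers outside these rules and genes near the clusters were added after values were seen. Symbols not listed are not analysed here, and 1 transcription factor of the lists is not reported here. Scaling, pseudocount, scale, shared stretches and limit were varied. Steps were tested on simulated data (Python 3.11.15, numpy 2.4.6, pandas 2.3.3, scipy 1.17.1).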

Additional observations from a re-analysis of the deposited data

How the results depend on the processing

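No paired analysis was possible because each group had 1 library, and for the same reason no library could be left out. The log2 ratios of the 10 genes in the 3 comparisons were recomputed under total-count scaling, pseudocounts of 1 and 50 and the deposited scale. All 120 values kept their direction. A change of pseudocount could not have altered it, because the same number is added to both normalized counts. Of the 120 values, 87 lay no further from the main log2 ratio than 0.5 times the log2 width of its counting interval. Total-count scaling moved the median of all genes to -0.06 (GOx against control), -0.13 (GOx plus Et2HOBA against control) and -0.08 (treated against treated). On the deposited scale the medians over the 10 genes were -1.02, -2.25 and -0.48 in that order, and only 1 gene passed 1 log2 unit between the treated libraries. With the 1 gene without a shared stretch, Irgm1, the medians were -1.07, -2.06 and -0.99 and the counts past the limit 1, 1 and 0, since fewer genes enter. At a limit of 2 log2 units the counts were 0 after GOx and 0 between the treated libraries, and 10 with Et2HOBA against control; at 0.5 they were 10 in each. Depth limits Iigp1, with 72 reads with Et2HOBA, and Gbp11, Tgtp2, Gm4951 and Gm5431, with under 10.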

Other observations

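Genes whose products work with the GTPases mostly stayed within 1 log2 unit of control. Of 11 genes of a list of ATG8 proteins, their conjugation enzymes, which help steer the IRGs and GBPs to membranes, and Sqstm1, a cargo receptor that binds ATG8 proteins and is no part of the conjugation machinery, Sqstm1 alone passed 1 log2 unit, with 23377, 53136 and 75166 reads (control, GOx, GOx plus Et2HOBA); Atg7 had 2664, 3850 and 4933, Gabarapl1 had 4298, 5160 and 6268, and Map1lc3a had 1515, 1681 and 2131. Of 8 inflammasome genes sought, 5 were listed and none passed the limit: Casp4, the caspase-11 gene, had 383, 708 and 635 reads, Aim2 had 1322, 1697 and 2047, and Gsdmd had 2724, 2696 and 2527.

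Among 10 atlastin, dynamin and mitofusin genes, whose products are GTPases related to the GBPs or to dynamin, the median log2 ratio to control was -0.04 after GOx and 0.03 with Et2HOBA. Dnm3 was the exception, with 1310, 419 and 177 reads, or 34.2% (95% interval 30.6 to 38.2) and 13.4% (11.4 to 15.7) of control, values within the range of the 10 GBP and IRG genes. Dnm2 had 8265, 10065 and 13699 reads, Atl1 had 538, 449 and 384 and Mfn2 had 2777, 2271 and 2207.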
